A study of Mus musculus with 5 samples.

Results

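The genes followed here take up arginine, turn it into nitric oxide or ornithine, and recycle it: Nos2, Arg1, Arg2, Ass1, Asl, Slc7a1, Slc7a2, Gch1 and Odc1. They were chosen by name for their roles in this pathway, 9 of the 21878 gene symbols in the deposited table, and their 22 of 75959 transcripts were summed per gene. The RNA came from RAW264.7, a transformed mouse line with macrophage features, and made up 5 libraries. Cells received LPS at 0.5 mg/mL together with arctigenin, a plant lignan, at 1 μM (2 libraries), LPS at 0.5 mg/mL alone (2 libraries), or vector (1 library), with the doses as labelled. LPS is the outer membrane lipid of Gram-negative bacteria. The labels give neither the time of exposure nor the content of the vector treatment, so an effect of a solvent of arctigenin cannot be told apart from arctigenin itself. RAW264.7 is 1 cultured line and no substitute for tissue macrophages, and the labels do not say that libraries of a group came from separate cultures.

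Totals lay between 19836203 and 21578355 estimated counts per library. The line was checked against 10 macrophage markers, all of which were detected, with summed levels of 7668 and 6991 CPM (counts scaled to a common library size with TMM factors) in LPS with arctigenin, 6275 and 6134 CPM in LPS, and 8311 CPM in vector. The macrophage markers in the sum did not move together. Lyz2 had 1651 and 1613 CPM in LPS with arctigenin, 1749 and 1641 CPM in LPS, and 4358 CPM in vector. In the same order Itgam had 706 and 652, 1029 and 958, and 442 CPM, and Cd14 had 3021 and 2428, 1279 and 1287, and 1409.9 CPM. Mrc1 was at only 0.558 CPM in vector. Of 20 markers of other cell types, 4 had no counts in any library (Cd3e, Cd3g, Ly6g and Epcam). The summed level of the 20 was 93.9 and 113 CPM in LPS with arctigenin, 170.3 and 168 CPM in LPS, and 6.13 CPM in vector. In the LPS-treated libraries nearly all of that was S100a8, at 88.04 and 107 CPM in LPS with arctigenin and 162 and 161 CPM in LPS, against 2.87 CPM in vector, while Ly6g, which defines neutrophils, stayed at 0. The part of these markers in the results was not tested. In bulk RNA, fewer cells with a transcript and less transcript per cell cannot be told apart.

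Macrophages use arginine in competing ways. Nos2, the inducible nitric oxide synthase, oxidises it to nitric oxide and citrulline and needs the cofactor tetrahydrobiopterin, whose synthesis begins with Gch1, GTP cyclohydrolase. Argininosuccinate synthase (Ass1) and argininosuccinate lyase (Asl) turn citrulline back into arginine. The arginases Arg1, cytosolic, and Arg2, mitochondrial, split arginine into urea and ornithine, from which Odc1, ornithine decarboxylase, makes the polyamine putrescine. Slc7a1 and Slc7a2 encode the cationic amino acid transporters CAT-1 and CAT-2, which bring arginine into the cell. Nos2 is the textbook marker of macrophages activated by LPS and interferon, and Arg1 that of macrophages activated by interleukin-4.

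On build mm9, the build named in the submitters' processing notes, all 9 genes are annotated as protein-coding. On the plus strand are Nos2 (chromosome 11, 78734289 to 78773756) and Ass1 (chromosome 2, 31325727 to 31376192). On the minus strand is Gch1 (chromosome 14, 47773570 to 47809088). Asl and Slc7a1 are both on the minus strand of chromosome 5, from 130487128 to 130501002 and from 149138986 to 149211480. Arg1 spans 24635014 to 24647276 of chromosome 10, also on the minus strand. Arg2 and Odc1 are both on the plus strand of chromosome 12, from 80231764 to 80257288 and from 17551679 to 17558308, and Slc7a2 spans 41947750 to 42007662 of chromosome 8 on that strand too. Arg2 overlaps Vti1b on the opposite strand, and Slc7a2 overlaps the gene model Gm17475 on the opposite strand. No source used here says if reads were counted by strand. The paralog pairs shared almost no sequence that could confuse a read: of all 31-base words in their annotated transcripts, Arg1 and Arg2 had 0 in common and Slc7a1 and Slc7a2 had 2.

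The RefSeq promoter table held 4 of the 9 genes (Ass1, Odc1, Slc7a1 and Gch1), and Nos2, Arg1, Arg2, Asl and Slc7a2 are named only. The 250 bases before the start are printed for Ass1 and Odc1, which were called higher in both comparisons reported below, and for the outer of the 2 starts of Slc7a1, which was called lower in both. They come from build GRCm38.p6, are written 5′ to 3′ on the gene's own strand, and carry motif matches in capitals. The motifs were GGGNNNNNCC, a loose NF-kB pattern found in 45.8% of 32851 promoters of the same length, the interferon-stimulated response element (2.98%), TTGCNNAA (C/EBP, 9.56%) and TATAAA (a core promoter box, 12.4%), each searched on both strands.
Ass1, chr2:31470020-31470269, plus strand: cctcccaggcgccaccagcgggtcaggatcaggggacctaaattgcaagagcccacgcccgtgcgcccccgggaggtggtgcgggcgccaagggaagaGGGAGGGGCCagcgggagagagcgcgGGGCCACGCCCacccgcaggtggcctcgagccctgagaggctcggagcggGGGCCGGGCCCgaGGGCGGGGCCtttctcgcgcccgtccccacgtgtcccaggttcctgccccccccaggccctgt
Odc1, chr12:17544623-17544872, plus strand: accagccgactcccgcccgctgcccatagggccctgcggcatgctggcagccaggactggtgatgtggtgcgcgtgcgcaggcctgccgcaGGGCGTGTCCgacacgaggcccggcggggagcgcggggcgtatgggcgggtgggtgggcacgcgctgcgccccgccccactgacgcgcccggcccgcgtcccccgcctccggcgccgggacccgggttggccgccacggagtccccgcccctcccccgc
Slc7a1, chr5:148399905-148400154, minus strand: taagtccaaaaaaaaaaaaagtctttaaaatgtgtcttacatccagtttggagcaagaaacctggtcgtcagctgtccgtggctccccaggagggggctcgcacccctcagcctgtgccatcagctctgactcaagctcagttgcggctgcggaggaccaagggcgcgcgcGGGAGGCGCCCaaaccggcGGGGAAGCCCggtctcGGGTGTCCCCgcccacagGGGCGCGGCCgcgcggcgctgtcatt

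All matches in these 3 windows were to the NF-kB pattern, and overlapping matches on both strands run together in the capitals. The Gch1 window also held matches to it and a TATAAA match on the opposite strand, and the window of the inner Slc7a1 start held a TATAAA match and none to the NF-kB pattern. The windows of Ass1 and Odc1 were 75.6% and 80.0% G or C, and a pattern anchored on G and C is met often in such sequence. A match is a description of these letters and not a binding site.

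With LPS, 7 of the 9 genes were called higher and 1 lower than in vector, where 27.1% of the 11575 genes tested were called higher and 24.9% lower. A call is a Benjamini-Hochberg adjusted p under 0.05 over all genes tested, from the quasi-likelihood test of edgeR, and every adjusted p below is of that kind unless another tool is named. The median log2 fold change was 1.45 over the 9 genes and −0.01 over all genes tested. Nos2 and Slc7a2 moved most, Arg2 followed, and Slc7a1 alone was called lower. With arctigenin added to LPS, 4 were called higher (Nos2, Arg1, Ass1 and Odc1) and 3 lower (Arg2, Slc7a1 and Slc7a2), against 22.8% higher and 22.0% lower among all genes. The median was 0.00 over the 9 genes and −0.00 over all genes. All 9 passed the filter on low counts, but Arg1 passed through the LPS with arctigenin libraries only, so its place in these counts is no independent sign of a difference. Slc7a2, at 0 counts in vector, passed through the LPS-treated libraries only, and the same limit holds for its place among the genes higher than vector. The 1 vector library has no replicate, and the spread in LPS against vector comes from the other groups.

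**Figure D1:**
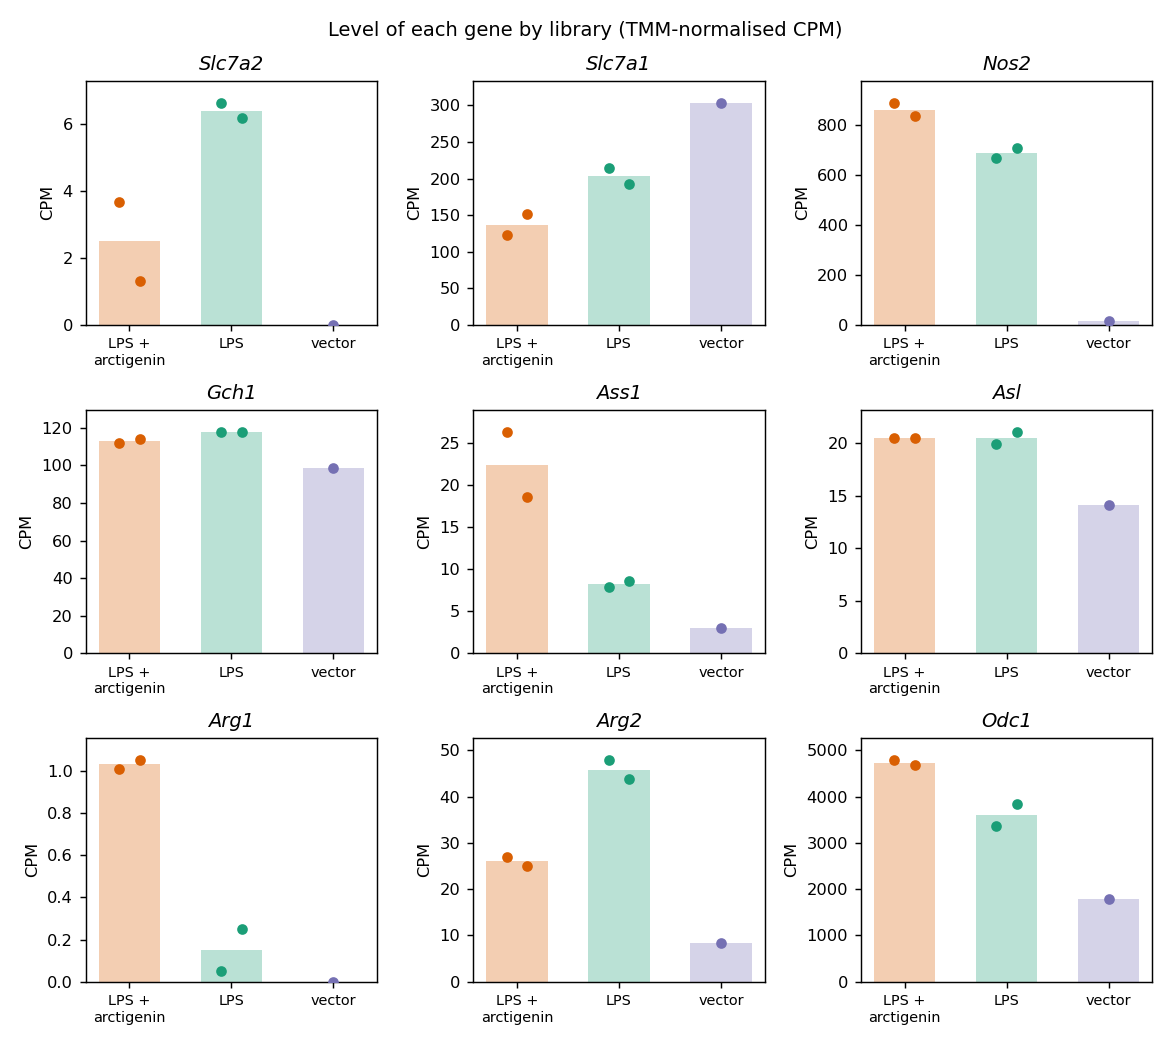
Level of each gene in TMM-normalised CPM (vertical axis, own scale in each panel, from 0) by group; points are libraries and bars are group means (n = 2 for LPS with arctigenin and for LPS, n = 1 for vector). Slc7a1 is highest in vector at 303 CPM, Nos2 is highest in LPS with arctigenin at 886 and 834 CPM, and Slc7a2 and Arg2 are highest in LPS alone.

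Of the arginine transporters, whose mRNA alone was measured, Slc7a2, the inducible CAT-2, had 69 and 25 estimated counts in LPS with arctigenin, 135 and 123 in LPS, and 0 in vector. These correspond to 3.67 and 1.32 CPM, 6.62 and 6.17 CPM, and 0 CPM. The LPS libraries stood above both arctigenin libraries, which themselves lay well apart. With LPS, the group mean of Slc7a2 was at least 53.5-fold higher than vector, taking 3 counts (0.119 CPM) as the floor of the vector library. The floor covers counting error only. Under arctigenin it fell 2.56-fold below LPS alone (log2 −1.36 ± 0.40, SE, adjusted p = 0.0227). The fold rests on which arctigenin library is used: log2 was −2.27 without replicate 1 and −0.80 without replicate 2, both still called. The call was lost without LPS replicate 1 (adjusted p = 0.119), without LPS replicate 2 (0.0865) and with curated transcripts only (0.073).

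Slc7a1, the constitutive CAT-1, had 123 and 151 CPM in LPS with arctigenin, 215 and 193 CPM in LPS, and 303 CPM in vector. The groups did not overlap. It fell 1.48-fold with LPS (log2 −0.57 ± 0.12, SE, adjusted p = 0.00348) and a further 1.49-fold with arctigenin (log2 −0.58 ± 0.10, adjusted p = 0.00179). Both calls held in every alternative, with log2 between −0.65 and −0.49 for LPS against vector and between −0.73 and −0.44 for LPS with arctigenin against LPS. Per length, on the TPM scale (transcript abundance scaled by length, from the longest annotated transcript), CAT-1 stayed by far the more abundant of the pair. TPM values carry no TMM factors, so between vector and the LPS-treated libraries they differ from CPM. Slc7a2 made up 2.63% and 0.788% of the summed TPM of both genes in LPS with arctigenin, 2.71% and 2.82% in LPS, and 0% in vector. With the median in place of the longest transcript its mean share in LPS was 3.83% in place of 2.76%. The summed TPM of both transporters was 37.9 and 46.7 in LPS with arctigenin, 73.8 and 65.5 in LPS, and 117 in vector, so the summed transporter mRNA was lowest where Nos2 was highest.

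Nitric oxide synthesis was represented by Nos2 and Gch1. Nos2 had 886 and 834 CPM in LPS with arctigenin, 666 and 705 CPM in LPS, and 14.98 CPM in vector. The 3 groups did not overlap. It rose 45.8-fold with LPS (log2 5.52 ± 0.11, SE, adjusted p = 1.25e-09). With arctigenin it rose by a further 1.25-fold (log2 0.33 ± 0.06, 95% interval 0.19 to 0.47, adjusted p = 0.00196), and log2 lay between 0.28 and 0.37 over 11 alternatives. Ranked by TPM among 18937 genes with a length, Nos2 stood at place 341 and 350 in LPS with arctigenin, 404 and 385 in LPS, and 7608 in vector.

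Gch1 was expressed at nearly one level throughout, at 112 and 114 CPM in LPS with arctigenin, 118 and 118 CPM in LPS, and 98.6 CPM in vector. It rose 1.20-fold with LPS (log2 0.26 ± 0.08, SE, adjusted p = 0.0166), a call lost in DESeq2 (0.0682), with curated transcripts only (0.0511), and without LPS replicate 1 (0.069) or 2 (0.0778). LPS with arctigenin and LPS were not called different (log2 −0.06 ± 0.06, 95% interval −0.20 to 0.08, adjusted p = 0.462). In vector, Gch1 therefore stood above Nos2 per length, at 98.1 against 9.86 TPM. In the LPS libraries the order was turned round, with Nos2 at 380.2 and 398 TPM and Gch1 at 101 and 101 TPM.

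Citrulline recycling takes a pair of enzymes in turn, Ass1 and then Asl. Ass1 had 26.3 and 18.5 CPM in LPS with arctigenin, 7.89 and 8.63 CPM in LPS, and 3.03 CPM in vector. Each group lay wholly above the next. Ass1 rose 2.73-fold with LPS (log2 1.45 ± 0.27, SE, adjusted p = 0.00151) and 2.71-fold with arctigenin over LPS (log2 1.44 ± 0.19, 95% interval 1.02 to 1.86, adjusted p = 0.000223). Its arctigenin libraries differed from each other, and log2 was 1.16 without replicate 1 and 1.67 without replicate 2. The call held in each of the 11 alternatives.

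Asl had 20.5 and 20.5 CPM in LPS with arctigenin, 19.9 and 21.1 CPM in LPS, and 14.1 CPM in vector. The arctigenin values lay between those of LPS. Asl rose 1.45-fold with LPS (log2 0.54 ± 0.14, SE, adjusted p = 0.00891), a call lost in DESeq2 (0.0712), with curated transcripts only (0.16) and without LPS replicate 2 (0.0537). With arctigenin it was not called (log2 0.00 ± 0.11, 95% interval −0.25 to 0.25, adjusted p = 0.997). Per length, the ratio of Ass1 to Asl was 1.83 and 1.28 in LPS with arctigenin, 0.564 and 0.583 in LPS, and 0.305 in vector. Ass1 was thus the scarcer mRNA of the pair in LPS and vector, and with median transcript lengths the arctigenin ratios were 1.38 and 0.969.

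Of the arginases, Arg2 had 26.9 and 25.1 CPM in LPS with arctigenin, 47.9 and 43.8 CPM in LPS, and 8.4 CPM in vector, with no overlap between groups. It rose 5.45-fold with LPS (log2 2.45 ± 0.14, SE, adjusted p = 4.97e-07) and fell 1.76-fold with arctigenin below LPS (log2 −0.82 ± 0.10, adjusted p = 0.000131), and both calls held in all alternatives. Vti1b, which overlaps Arg2 on the other strand, was at 149.7 and 152 CPM in LPS with arctigenin, 139 and 139.5 CPM in LPS, and 90.2 CPM in vector, and rose with LPS as Arg2 did (log2 0.63, adjusted p = 7.22e-05). With arctigenin against LPS it was not called (log2 0.12, adjusted p = 0.141). Its part in the Arg2 counts was not tested.

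Arg1 was near the limit of detection. It had 19 and 20 estimated counts in LPS with arctigenin, 1 and 5 in LPS, and 0 in vector, or about 1 CPM at most (1.01 and 1.05, 0.049 and 0.251, and 0 CPM). Both arctigenin libraries lay above both LPS libraries. The ratio of counts for LPS with arctigenin over LPS was 6.94 (95% counting interval 2.92 to 20.1), with an adjusted p of 0.0277. That call was lost in 6 of 11 alternatives. They were DESeq2 (adjusted p = 0.104), curated transcripts only (0.125), and leaving out either arctigenin library (0.0613 for replicate 1, 0.059 for replicate 2) or either LPS library. The fitted log2 of 2.74 became 2.02 without LPS replicate 1 (adjusted p = 0.183) and 4.24 without LPS replicate 2 (0.0557). The LPS libraries averaged 3 counts, the floor itself, and vector had 0, so no fold is given between them. Of the arginase mRNA per length, Arg2 made up 96.5% and 96.1% in LPS with arctigenin, 99.9% and 99.4% in LPS, and all of it in vector. Summed TPM of both arginases was 42.01 and 40.5 in LPS with arctigenin, 80.3 and 72.97 in LPS, and 16.2 in vector.

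**Figure D2:**
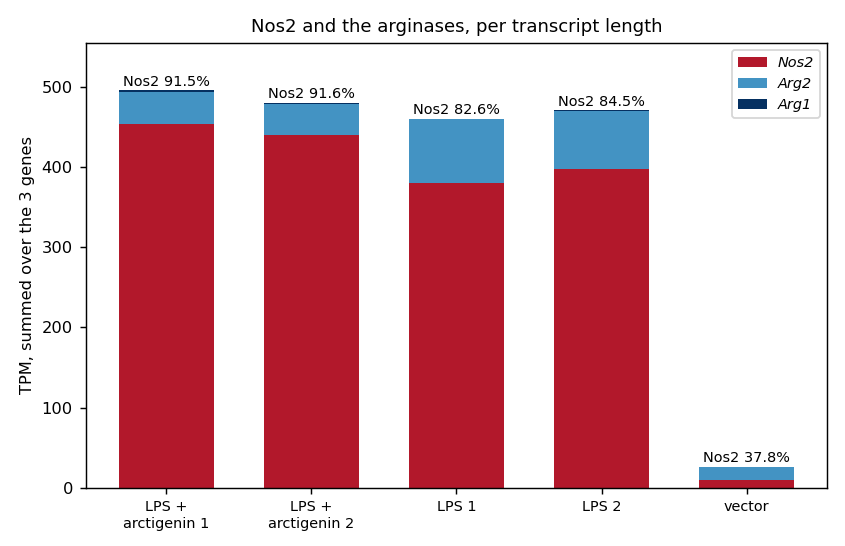
TPM of Nos2, Arg2 and Arg1 (vertical axis, from 0) stacked for each of the 5 libraries, with the share of Nos2 in the sum written above each bar. Nos2 makes up 91.5% and 91.6% with LPS and arctigenin, 82.6% and 84.5% with LPS and 37.8% with vector, and Arg1 is too low to be seen in most bars.

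Nos2 and the arginases draw on the same arginine, and their mRNAs were set side by side per length in the plot of Nos2 and the arginases. Nos2 was 11.2 and 11.3 times Arg2 in LPS with arctigenin, 4.74 and 5.48 times in LPS, and 0.607 times in vector. The ratio of Nos2 to Arg2 thus moved with arctigenin through both genes, with Nos2 higher and Arg2 lower. No test was made of the ratio.

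Odc1 was the most abundant of the 9 in every library, at 4789.9 and 4677 CPM in LPS with arctigenin, 3375 and 3849 CPM in LPS, and 1791 CPM in vector. It stood at place 23 and 18 by TPM in LPS with arctigenin, 24 and 20 in LPS, and 63 in vector. It rose 2.02-fold with LPS (log2 1.01 ± 0.09, SE, adjusted p = 1.06e-05) and 1.31-fold with arctigenin over LPS (log2 0.39 ± 0.07, 95% interval 0.23 to 0.55, adjusted p = 0.00149), and both calls held in all alternatives. Odc1 and Arg2, which act one after the other, were both higher with LPS and went opposite ways with arctigenin.

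**Figure D3:**
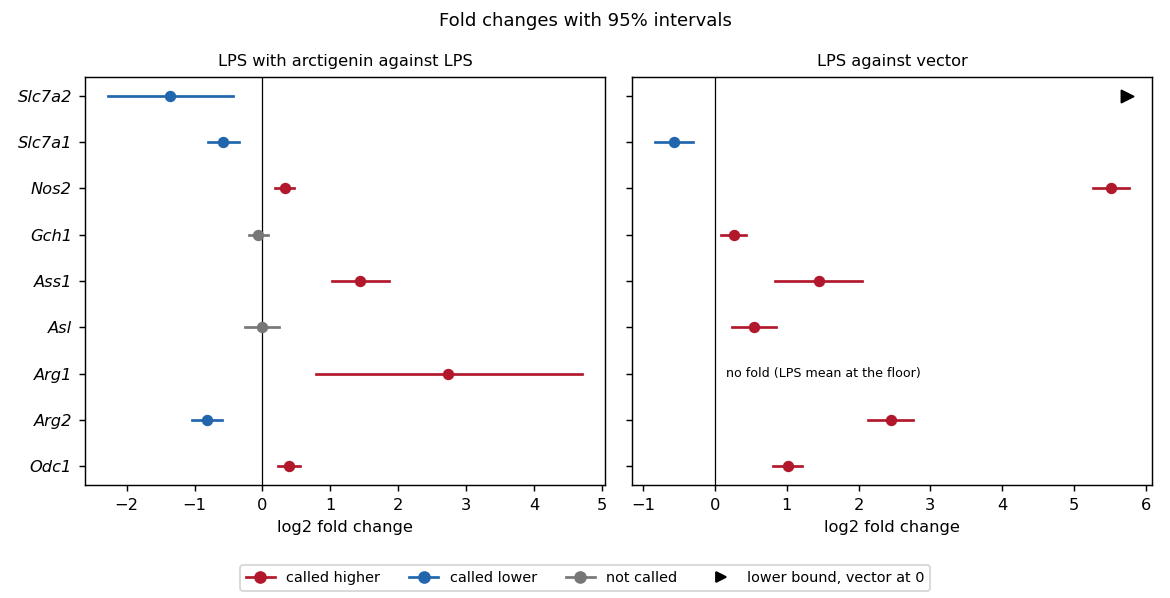
Log2 fold change of each gene (horizontal axis) for LPS with arctigenin against LPS and for LPS against vector; points are edgeR estimates, bars 95% intervals, and the arrowhead marks the lower bound for Slc7a2, at 0 in vector. With arctigenin, Ass1 and Arg1 lie right of 0 and Arg2, Slc7a1 and Slc7a2 left of it, with Asl and Gch1 on it.

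LPS with arctigenin was also set against vector, which shares its libraries with the other comparisons. In it 8 of the 9 genes were called higher and Slc7a1 lower, where 30.4% of all genes were higher and 25.7% lower. Arg1 passed the filter through the LPS with arctigenin libraries only, and Slc7a2 through the LPS-treated libraries only. Their place in this count is therefore no independent sign of a difference. The fold changes were 57.4 for Nos2, 7.39 for Ass1, 3.10 for Arg2, 2.64 for Odc1 and 1.45 for Asl, with Slc7a1 down 2.21-fold. Taking 3 counts as the floor of vector, the group mean of Slc7a2 was at least 20.9-fold and that of Arg1 at least 8.64-fold higher. The arctigenin libraries of Slc7a2 lay well apart, at 3.67 and 1.32 CPM. Arg2 and Slc7a2, lower with arctigenin than with LPS alone, were thus still above vector. The call of Gch1 (1.15-fold, adjusted p = 0.0478) did not hold in 7 of 9 alternatives, for example with RLE scaling (0.0674) or in DESeq2 (0.195). On the TPM scale, without TMM factors, Gch1 was lower than vector, at 87.1 and 90.6 against 98.1.

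Ordered by TPM, the LPS with arctigenin libraries ran Odc1 (4042 and 4057), Nos2 (454 and 439.8), Gch1 (87.1 and 90.6), then Slc7a1 (36.9 and 46.4) and Arg2 (40.5 and 38.9), whose ranges overlap. Ass1 (33.4 and 24.1), Asl (18.3 and 18.8), Arg1 (1.47 and 1.58) and Slc7a2 (0.998 and 0.368) followed. In the LPS libraries the order was Odc1 (3169 and 3574), Nos2, Gch1, then Arg2 (80.2 and 72.6), Slc7a1 (71.8 and 63.6), Asl (19.7 and 20.7), Ass1 (11.1 and 12.04), Slc7a2 (2.00 and 1.85) and Arg1 (0.0795 and 0.402). In vector it was Odc1 (1941), Slc7a1 (117), Gch1 (98.1), Arg2 (16.2) and Asl (16.1), Nos2 (9.86), and Ass1 (4.93), with Arg1 and Slc7a2 at 0. With median in place of longest transcript lengths, Ass1 (29.6 and 21.4) and Asl (21.4 and 22.1) overlapped in LPS with arctigenin, and in vector Asl (18.9) stood above Arg2 (14.4). With both lengths Slc7a1 stood next to Odc1 in vector and behind Nos2, Gch1 and Arg2 in LPS.

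Transcripts were estimated separately for some of the genes. Nos2 was carried by transcript variant 1, with 16592.4 and 15775.0 estimated counts in LPS with arctigenin, 13567.2 and 14009.8 in LPS and 368.8 in vector, which was 99.7% to 99.8% of the gene in the LPS-treated libraries and 98.0% in vector. Slc7a2 was divided over 6 transcripts. Its variant 2 held 29.7% and 53.8% of the gene's counts in LPS with arctigenin and 63.3% and 49.3% in LPS, and its variant 1 held 28.8% and 11.2%, and 19.5% and 35.7%. For these 2 variants the shares of both groups overlapped. The predicted variants X1, X3 and X4 held more of the gene with arctigenin, at 13.2% and 14.3%, 8.4% and 8.85%, and 7.25% and 8.73%, against 0.554% and 5.3%, 0.315% and 3.01%, and 0.282% and 2.97% in LPS. Each of those shares rests on fewer than 10 estimated counts a library and was not tested. Of Slc7a1, variant 1 held 50.2% and 41.5% in LPS with arctigenin, 36.4% and 37.5% in LPS and 34.4% in vector, the remainder being variants 2 and X1. The predicted variant X2 of Asl held 8.44% and 18.2% in LPS with arctigenin, 4.67% and 4.26% in LPS and 1.97% in vector. Odc1 kept about 90% in its curated transcript in all libraries.

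Tested as transcripts, 17 of the 22 passed the filter. With LPS 4 were called higher and 0 lower (Nos2 variant 1, Arg2 and both of Odc1), against 5.09% of 35464 transcripts called in either direction, and 10 of the 17 had an unadjusted p under 0.05. For LPS with arctigenin against LPS, edgeR called 0 of the 17, against 1.19% of all transcripts, and 8 of the 17 had an unadjusted p under 0.05. Apart from Asl, the estimates keep the directions of the gene results, for example log2 −0.83 for Arg2 (adjusted p = 0.089) and 1.43 for Ass1 (adjusted p = 0.118). The transcripts of Asl went opposite ways, at log2 −0.11, −0.37 and 1.55, against 0.00 for the gene. No other tool was run on transcripts.

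The other genes of the pathway were taken from 6 lists of 90 genes in all, of which 87 were in the table and 75 tested. With LPS 19 of the 75 were called higher (25.3%, against 27.1% of all genes) and 28 lower (37.3%, against 24.9%), with a median log2 of −0.13. With arctigenin over LPS 19 were called higher (25.3%, against 22.8%) and 11 lower (14.7%, against 22.0%), with a median of 0.09. The lists were described by these counts and not tested as sets. The counts of each list below stand against the same shares of all genes. In the polyamine list, for example, 29.4% were called higher with arctigenin, against 22.8% of all genes. In the list of ornithine, proline and the urea cycle 33.3% were called lower with LPS, against 24.9% of all genes.

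**Figure D4:**
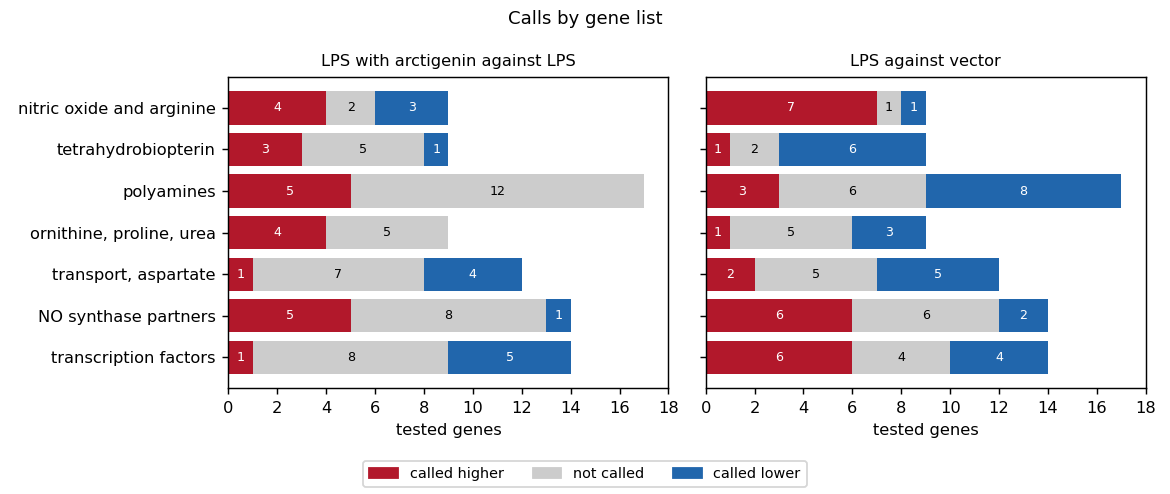
Number of tested genes (horizontal axis) called higher, not called and called lower in each list, for LPS with arctigenin against LPS and for LPS against vector. The tetrahydrobiopterin list has 6 of 9 genes lower with LPS and 3 of 9 higher with arctigenin, and the polyamine list has 8 of 17 lower with LPS and 0 of 17 lower with arctigenin. Over all genes tested, 27.1% were called higher and 24.9% lower with LPS, and 22.8% higher and 22.0% lower with arctigenin.

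Of 9 tested genes of tetrahydrobiopterin synthesis and recycling 1 rose and 6 fell with LPS. The 6 included Pts and Spr, the enzymes that follow Gch1, and the recycling enzyme Qdpr. Pts had 15.8 and 12.1 CPM in LPS and 28.9 CPM in vector (2.06-fold lower, adjusted p = 0.00106), and Spr 7.31 and 7.43 CPM against 14.9 CPM (2.02-fold lower, adjusted p = 0.00126). Qdpr fell 1.88-fold. Gch1, the first enzyme of the route, was called slightly higher with LPS, while Pts and Spr, which follow it, were called lower. The call of Gch1 was lost in 4 of 9 alternatives. Without TMM factors, Gch1 made up 0.0115% of the estimated counts in vector and in each LPS library. With arctigenin 3 rose and 1 fell. Qdpr rose 1.58-fold over LPS to 19.96 and 22.5 CPM, against 11.7 and 15.2 CPM in LPS, a call lost without LPS replicate 1 (adjusted p = 0.0573) and with curated transcripts only (0.0592). The aldose reductase Akr1b3 rose 1.57-fold, and Pcbd2 rose 1.62-fold with a call lost for curated transcripts only (adjusted p = 0.214). Both had been called lower with LPS. Akr1b3 had 95.2 and 86.2 CPM in LPS with arctigenin, 60.8 and 55.1 CPM in LPS, and 87.9 CPM in vector.

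Of 17 tested genes of polyamine metabolism 3 rose and 8 fell with LPS, and 5 rose and 0 fell with arctigenin over LPS. At an unadjusted p under 0.05, edgeR had 1 lower with arctigenin, and DESeq2 called 1 lower and limma-voom 0. Without either LPS library in turn, fewer of the list were called lower with LPS and fewer higher with arctigenin. The same was true over all genes tested. The spermidine synthase Srm, which uses the product of Odc1, had 15.7 and 17.03 CPM in LPS with arctigenin, 11.7 and 11.2 CPM in LPS and 23.6 CPM in vector. It fell 2.06-fold with LPS (adjusted p = 0.000206). Its rise of 1.43-fold with arctigenin (adjusted p = 0.00837) was lost in 4 of 11 alternatives, among them DESeq2 (0.0648). Also lower with LPS were Mri1 (2.16-fold, lost with curated transcripts only, 0.0756) and Mtap (1.73-fold), of the methionine salvage pathway, and Dohh (1.74-fold), which completes the hypusine modification of eIF5A. With arctigenin Oaz1, the antizyme that targets Odc1 protein for degradation, rose 1.61-fold to 158 and 152 CPM. It had 93.4 and 99.8 CPM in LPS and 119.6 CPM in vector. The spermine oxidase Smox rose 1.58-fold (adjusted p = 0.0519 with curated transcripts only) and Eif5a 1.43-fold. Oaz1 and Eif5a had been called lower with LPS, and Smox higher. Odc1 and its antizyme were therefore both higher with arctigenin than with LPS alone.

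Of 9 tested genes of ornithine, proline and the urea cycle 1 rose and 3 fell with LPS, and 4 rose and 0 fell with arctigenin, with 0 lower also at an unadjusted p under 0.05 in edgeR, in DESeq2 and in limma-voom. Otc and Cps1, the mitochondrial urea cycle enzymes of the liver, did not pass the filter. Oat, which leads ornithine towards proline, had 66.5 and 67.6 CPM in LPS with arctigenin and 43.8 and 43.5 CPM in LPS (1.54-fold higher, adjusted p = 0.00018). Gatm, the first enzyme of creatine synthesis, rose 1.38-fold. Gatm had already risen 1.35-fold with LPS. Pycr1, a proline-forming reductase, fell 2.46-fold with LPS, a call lost with curated transcripts only (log2 −2.18, adjusted p = 0.178). The log2 of 0.61 for Pycr1 with arctigenin (adjusted p = 0.0343) lost its call in 5 of 11 alternatives and became −0.89 with curated transcripts only. Aldh18a1, which makes proline and ornithine precursors from glutamate, fell 1.31-fold with LPS, and Pycrl 1.45-fold with a call lost in 4 of 9 alternatives, for example DESeq2 (0.184).

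Of 12 tested genes of other amino acid transport and aspartate supply 2 rose and 5 fell with LPS, and 1 rose and 4 fell with arctigenin. Without LPS replicate 1, fewer of the list were called lower with LPS, and fewer were over all genes tested too. Slc7a7, the partner of Slc3a2 in a carrier that exports arginine, had 20.5 and 22.2 CPM in LPS with arctigenin and 44.4 and 40.8 CPM in LPS (1.99-fold lower, adjusted p = 4.3e-05, and 0.294 with curated transcripts only). In vector it had 28.2 CPM, and it was called higher with LPS. Slc38a9, a lysosomal sensor of arginine, fell 1.46-fold with arctigenin, and its log2 of −0.54 became −1.23 with curated transcripts only. With LPS the neutral amino acid carrier Slc7a8 rose 2.40-fold and Slc7a5 fell 1.69-fold. Slc7a4 was rare, with 5 counts in both LPS libraries together and 34 in vector, a ratio of 0.0916 (95% counting interval 0.028 to 0.235). It passed the filter on low counts through the vector library only. The place of Slc7a4 among the genes counted as lower with LPS is therefore no independent sign of a difference. Its call (adjusted p = 0.017) did not hold in DESeq2 (0.151) or when an LPS library was left out (0.112 and 0.0856). Of the transaminases that make aspartate, the substrate of Ass1, the cytosolic Got1 fell 1.54-fold with LPS and 1.23-fold more with arctigenin. The mitochondrial Got2 was called lower with LPS, at 135 and 126 CPM against 175 CPM in vector. With arctigenin it rose 1.30-fold over LPS, to 173 and 168 CPM.

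Of 14 tested genes for partners of nitric oxide synthases and for nitric oxide targets 6 rose and 2 fell with LPS, and 5 rose and 1 fell with arctigenin. The chaperones Hsp90ab1, at 2138 and 2076 CPM in LPS with arctigenin and 1202 and 1259 CPM in LPS, and Hsp90aa1 rose 1.71-fold and 1.49-fold with arctigenin. Nostrin, which binds the endothelial synthase, fell 2.29-fold with arctigenin. Prmt1, a methyltransferase whose products give rise to inhibitors of these enzymes, fell 1.84-fold with LPS and rose 1.63-fold with arctigenin. The reductase Por rose 2.18-fold with LPS, Cyb5r4 rose 1.38-fold (adjusted p = 0.911 with curated transcripts only) and the calmodulin gene Calm2 fell 1.45-fold.

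Of 14 transcription factors known to act on Nos2 or Arg1, 6 rose and 4 fell with LPS, and 1 rose and 5 fell with arctigenin. Without either LPS library in turn, fewer of the list were called lower with arctigenin, and fewer were over all genes tested too. Without either arctigenin library more of the list were called higher, where fewer were over all genes. Irf1, an activator of Nos2, had 13.1 and 14.4 CPM in LPS with arctigenin, 38.2 and 42.4 CPM in LPS and 20.6 CPM in vector, and fell 2.93-fold with arctigenin (log2 −1.55 ± 0.11, SE, adjusted p = 5.61e-06). Cebpb, which acts on the arginase promoter, rose 2.15-fold with LPS and fell 1.33-fold with arctigenin. Stat3 rose 2.64-fold with LPS. Klf4 fell 2.27-fold with LPS and 2.19-fold more with arctigenin. Jun was called lower with LPS, at 103 and 117 CPM against 204 CPM in vector. With arctigenin it rose 1.66-fold over LPS, to 180.2 and 186 CPM. Nos2 itself was higher with arctigenin while Irf1 mRNA was lower.

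The genes most like Nos2 were sought by the distance between log2 CPM profiles over the 5 libraries, each centred on its own mean, among genes with a mean log2 CPM of at least 2. The nearest were Urah (distance 0.35), the guanylate-binding protein Gbp5 (0.37), the transglutaminase Tgm1 (0.39), podoplanin, Pdpn (0.50), and Kctd12 (0.64). Urah had 266 and 273 CPM in LPS with arctigenin, 179.8 and 172 CPM in LPS, and 3.70 CPM in vector. Values in LPS with arctigenin and in LPS overlapped for Gbp5 (51.5 and 36.1 against 31.3 and 36.8 CPM). They also overlapped for Pdpn (435 and 568 against 493 and 494 CPM). For Urah, Tgm1 and Kctd12 they did not. Among the 9 genes themselves, to which the minimum was not applied, the nearest to Nos2 was Slc7a2, at 2.07. Slc7a2 had 0 counts in vector and, unlike Nos2, was lower with arctigenin than with LPS alone. The closest pair was Asl and Gch1, at 0.29, but many other genes lay nearer to Asl, for example Eps15l1 at 0.03. Ass1 and Arg1 were 1.30 apart, and Nos2 and Slc7a1 were the farthest pair, at 5.92. These distances describe 5 libraries in 3 groups and carry no test.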

How the data were processed

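RNA sequencing of 5 RAW264.7 libraries was analysed. The authors deposited estimated counts (expected counts that need not be whole) per RefSeq transcript, unscaled by library as far as the values show. Trimmomatic, HISAT2, Cufflinks, HTSeq and DESeq with mouse build mm9 are named in the submitters' processing notes, and no source used here names the tool that made the decimals. Counts were summed per gene symbol, rounded and filtered (filterByExpr, minimum count 10, minimum total 15), leaving 11575 genes and 10303 left out. All libraries entered one edgeR 4.0.16 fit in R 4.3.3 (TMM, robust quasi-likelihood, group only), leaving 2 residual degrees of freedom; the biological coefficient of variation was 7.13%. Standard errors were taken from each log2 fold change and its F statistic. Separate cultures are not stated, so a p-value reflects the spread among these libraries alone, which may be technical. TMM factors were 0.942 to 0.981 for LPS-treated libraries and 1.16 for vector. TPM values used the longest GENCODE M1 transcript per gene and no TMM factors, and the log2 CPM values for distances a prior count of 2. Alternatives were RLE factors, no filter, DESeq2 1.42.0, limma-voom (limma 3.58.1), curated transcripts only, leaving out libraries, fewer libraries in the fit and a replicate block. The median transcript length was chosen after seeing the data. The members, lists and the rule for named genes (every member, the 5 genes nearest to Nos2, and up to 4 called genes with the largest change per list and comparison) were chosen with earlier results of these data known, and some genes that the rule names are not reported here. Code was tested on simulated data.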

Additional observations from a re-analysis of the deposited data

How the results depend on the processing

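Of 261 log2 fold changes of the 9 genes under alternatives, 232 kept their direction and side of the threshold, 25 lost the call and 4 changed sign. The 4 were of Asl for LPS with arctigenin against LPS, where the value was 0.00: −0.01 with RLE size factors, −0.01 in DESeq2, −0.10 with curated transcripts only, and −0.04 to 0.04 leaving out a library. Pycr1 became −0.89 with curated transcripts only. The calls were also counted over the alternatives that kept both libraries of each LPS-treated group. Of the 9 genes, 5 to 7 were called higher and 1 lower for LPS against vector. The numbers were 3 to 4 and 2 to 3 for LPS with arctigenin against LPS, and 6 to 8 and 1 for LPS with arctigenin against vector. Over all genes, 1895 to 3192 were called higher and 1316 to 3142 lower for LPS against vector. For LPS with arctigenin these were 1372 to 2733 and 1160 to 2626 against LPS, and 2240 to 3602 and 1575 to 3201 against vector.

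Curated transcripts only gave fewer calls over all genes: 1895 higher and 1316 lower for LPS against vector (3137 and 2887), 1372 and 1160 for LPS with arctigenin against LPS (2634 and 2546), and 2240 and 1575 for LPS with arctigenin against vector (3524 and 2979). Of the pathway lists it called 18 lower for LPS against vector (28) and 7 lower for LPS with arctigenin against LPS (11). The cause was not tested. Leaving out a library gave 1686 to 2621 higher and 1548 to 2559 lower for LPS with arctigenin against LPS, the fewest without LPS replicate 1. Where a group was left with 1 library, it was assumed to vary like the others.

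The replicate numbers share no source in the labels, and deviations of same-numbered LPS and LPS with arctigenin libraries correlated at −0.00842 across genes. With the replicate block, 2694 genes were called higher and 2626 lower, and 4 and 3 of the 9 genes. Vector has no number. Counts limit Arg1 and Slc7a2, at 0 to 20 and 0 to 135 per library.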
